A study of Lupinus micranthus with 18 samples.

Results

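A group of 150 leaf unigenes of Lupinus micranthus, a lupin of the legume family, stood higher after 72 h of drought than after 24 h in seedlings of both seed origins. They are called late-rising here. A unigene is an assembled transcript unit of a species used here without a genome. The members were chosen from measured values: counts were scaled to a library total of 1000000 (CPM), averaged within each group of 3 libraries and written as log2(mean CPM + 1). A unigene qualified when its mean over all 18 libraries was under 200 CPM, its mean was at least 1 CPM in untreated leaves of each origin, and in both origins its 72 h value exceeded the untreated value by at least 1 and the 24 h value by at least 0.58, which is 1.49-fold. Of the 81470 unigenes measured, 232 qualified, and the 150 with the largest late step were taken. The late step is the 72 h minus the 24 h value, and unigenes were ordered by the smaller of their late steps in the 2 origins. The early step is the 24 h minus the untreated value.

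RNA was sequenced from leaves of seedlings raised from Iceland or America seeds. Seedlings of each origin were left untreated or kept under drought imposed with polyethylene glycol (PEG) for 24 h or for 72 h, which gives 6 groups of 3 libraries. The labels give no genotype beyond the seed origin, no seedling age, no PEG concentration, and no hour at which untreated leaves were taken. Whether the replicates are different seedlings is not stated, so p-values measure the spread between these libraries, which may be technical. Differences between times cannot be told apart from differences in seedling age, harvest hour or handling.

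Polyethylene glycol in the root medium lowers the water potential, so that roots take up less water while the osmolyte itself enters the tissue little. Leaves of drought-stressed plants first close their stomata and build up abscisic acid, a hormone that switches on many stress genes. With longer stress, plants commonly accumulate compatible solutes and protective proteins such as dehydrins and other late embryogenesis abundant proteins. The deposited table pairs no unigene with a gene name, a function or a sequence, so none of these roles is assigned to a member and no sequence is printed. Bulk leaf RNA does not tell apart more RNA per cell and more cells of a type that holds it.

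Library totals ranged from 9603068 to 12605500 counts. For a transcript listed at 0, 3 counts were taken as a floor, worth 0.238 to 0.312 CPM. This floor is a rough upper bound and not a maximum, and it covers counting error only. Of the members' 2700 values 7 were 0 counts, in 6 members. Taken over all members, a pair of libraries stood apart for these unigenes. Untreated Iceland replicate 3 held more of them than its replicates, and so did America 24 h replicate 3, and values without each are given beside the results they touch.

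The late rise was shared by definition between the origins, and most unigenes that met the thresholds did so in a single origin. Of the 20811 unigenes that met the limits on mean and untreated CPM, 845 met the thresholds in Iceland leaves and 726 in America leaves. The 232 that met them in both were 27.5% of the Iceland list and 32.0% of the America list. A unigene that missed a threshold in the other origin is not shown to lack the rise there. The limits on level left out others: 24 unigenes had the same steps in both origins with a mean of at least 200 CPM, and 189 had them with an untreated mean under 1 CPM. The limit of 150 left out 82. It fell within a dense range, where no gap parts members from other unigenes. The last members were Unigene0065880, Unigene0008875 and Unigene0078687, with smaller late steps of 0.733, 0.733 and 0.731. The first left out were Unigene0018489, Unigene0064898 and Unigene0003341, at 0.730, 0.730 and 0.729.

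Together the members made up a small share of the leaf transcript pool, larger at each time. In Iceland leaves they held 0.199% ± 0.0616 of the counts without treatment, 0.432% ± 0.0285 at 24 h and 1.16% ± 0.0507 at 72 h (SD, n = 3 each). In America leaves the shares were 0.192% ± 0.0174, 0.461% ± 0.114 and 1.22% ± 0.0624 (SD, n = 3 each). Groups of libraries did not overlap at any step. The median member had a group mean of 6.34 CPM untreated, 13.9 CPM at 24 h and 41.4 CPM at 72 h in Iceland leaves, and of 6.39, 16.7 and 44.2 CPM in America leaves. The members were chosen for this order, so these levels are a description and carry no test.

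**Figure D1:**
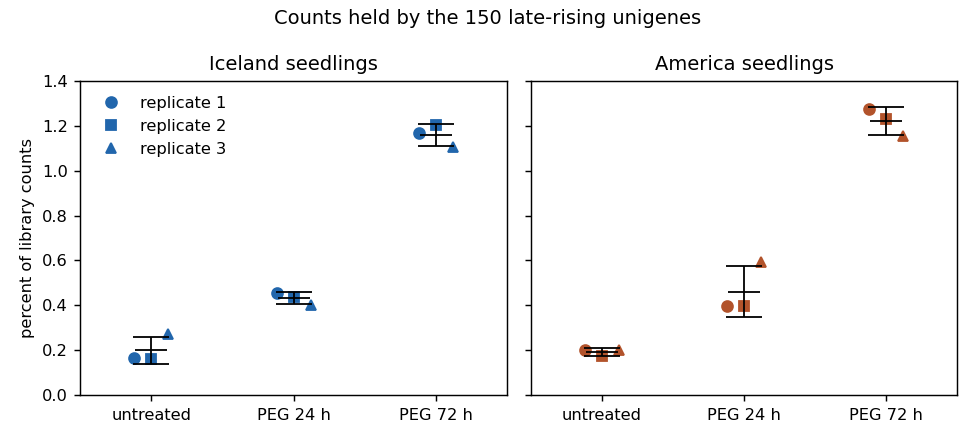
Percent of all library counts held by the 150 late-rising unigenes, by treatment, in Iceland and America seedlings. Each symbol is a library and the bars give the mean and SD of 3 libraries; the 72 h libraries lie between 1.10% and 1.28%, above every other library, and America 24 h replicate 3 lies at 0.592% over its replicates at 0.396% and 0.395%.

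Most members already had a higher group mean at 24 h than untreated, and only a minority stayed near their untreated level until then. The median early step was 0.77 in Iceland and 1.00 in America leaves, and the median late step was 1.26 and 1.26. Over the whole 72 h the median steps were 2.18 and 2.41, which correspond to 4.53-fold and 5.32-fold on this scale. Among all 20811 unigenes that met the limits on level, the median early step was 0.05 in Iceland and 0.17 in America leaves, and the median late step was 0.04 and 0.02. In the median member 61.3% of the whole log2 step fell after 24 h in Iceland and 59.2% in America leaves. The early step was above 0 in 136 members in Iceland and in 142 in America leaves. When library totals were scaled by TMM, which corrects for a few transcripts that take up much of a library, the median early step over all 20811 unigenes moved to -0.14 in Iceland and -0.05 in America leaves, and that of the members to 0.57 and 0.77. On that scale 134 members still met every threshold. Without untreated Iceland replicate 3 the members' median early step in Iceland leaves was 1.00, and without America 24 h replicate 3 that in America leaves was 0.80.

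By the course of their levels the members fell into several groups. In 73 members the early step reached 0.58 in both origins, and these had a step in both intervals, with a median early step of 1.26 in Iceland and 1.59 in America and a median late step of 1.17 and 1.10. In 29 members the early step lay within 0.58 of 0 in both origins. Their median early steps were 0.31 and 0.28, and their median late steps were 1.43 in Iceland and 1.73 in America leaves. A further 20 had an early step in Iceland leaves alone, and 23 in America leaves alone. A dip at 24 h of -0.58 or lower occurred in 4 members in Iceland and in 1 in America leaves, and in 0 members in both. These groups rest on CPM without TMM scaling and were not recounted on the TMM scale. There the members' median early step in Iceland leaves, given above, lay just under 0.58, so fewer members would reach 0.58. Without untreated Iceland replicate 3 that median moved the other way. The sizes of the groups thus depend on scaling and libraries, and their shares among the 20811 unigenes were not counted.

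**Figure D2:**
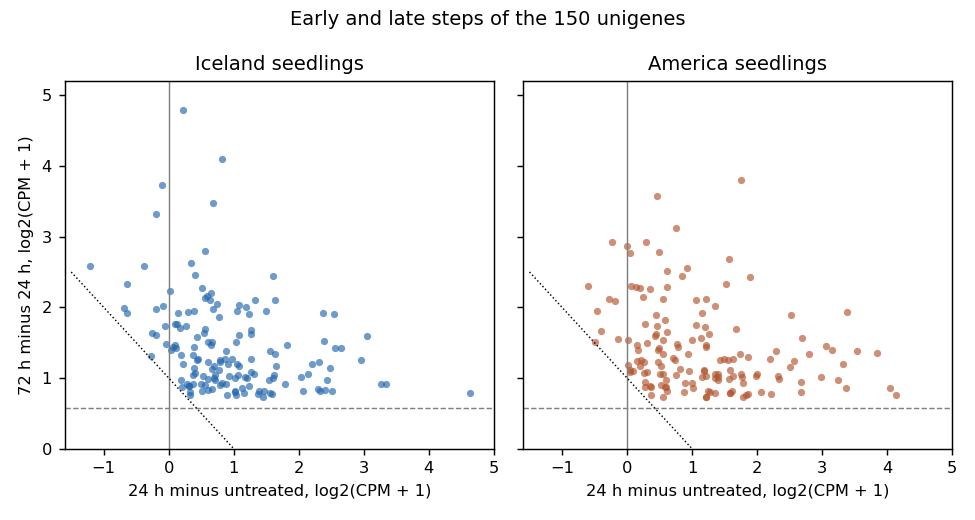
Early step (24 h minus untreated) against late step (72 h minus 24 h) of each of the 150 unigenes on the log2(mean CPM + 1) scale, 1 point per unigene, in Iceland and America seedlings. The dashed line at 0.58 and the dotted line, where both steps sum to 1, are thresholds of the choice of members, so that no point lies under them; points right of the grey line at 0 (136 in Iceland, 142 in America) were already higher at 24 h than untreated.

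How far the origins shared the size of each step, member by member, is shown by the correlation of their steps. Across the 150 members, early steps in Iceland and America leaves correlated at r = 0.541 (Spearman's rho 0.499), and across the 20811 unigenes at r = 0.767 (rho 0.755). For late steps the values were r = 0.378 (rho 0.275) in members and r = 0.321 (rho 0.315) across the 20811. The thresholds narrow the range of the members' steps, libraries are shared by all unigenes, and unigenes are not independent replicates, so these values describe the points and have no test.

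The 6 members with the largest smaller late step are described first. Unigene0020984 ranked first, with a late step of 3.73 in Iceland and 3.80 in America leaves. The Iceland leaves had 1.93, 1.44 and 1.85 CPM untreated, 1.48, 2.35 and 0.833 CPM at 24 h, and 18.9, 21 and 59.1 CPM at 72 h. Those of America origin had 1.51, 2.16 and 3.30 CPM untreated, 3.96, 2.78 and 23.9 CPM at 24 h, and 201, 149 and 117 CPM at 72 h. The 72 h libraries stood above all earlier ones in both origins, and America 24 h replicate 3 stood above the other America 24 h libraries.

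Unigene0051731 came next, with late steps of 2.79 in Iceland and 2.77 in America leaves. Iceland libraries held 14.5, 13 and 15.9 CPM untreated, 16.6, 23.6 and 25.1 CPM at 24 h, and 157, 178 and 134 CPM at 72 h. America libraries held 35.5, 8.65 and 28.9 CPM untreated, 30.5, 28.2 and 16.5 CPM at 24 h, and 188, 178 and 163 CPM at 72 h. Untreated and 24 h libraries overlapped in America leaves and not in Iceland leaves, and every 72 h library lay far above them. Unigene0068678 had an early step of -0.65 in Iceland leaves and a late step of 2.33, against 0.75 and 3.12 in America leaves. In Iceland seedlings the values were 10.9, 9.22 and 18.9 CPM untreated, 3.14, 11.3 and 9.37 CPM at 24 h, and 40.3, 43.6 and 48.5 CPM at 72 h. In America seedlings the values were 16.3, 9.97 and 9.26 CPM untreated, 9.58, 12.4 and 39.97 CPM at 24 h, and 222, 179 and 162 CPM at 72 h. Its 72 h libraries did not overlap earlier ones in either origin.

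The other 3 were less even. In Iceland leaves Unigene0052225 had 18.2, 3.65 and 19.7 CPM untreated, 21.9, 13.8 and 12.9 CPM at 24 h, and 549.7, 679 and 197 CPM at 72 h. The values in America leaves were 1.35, 6.11 and 0.183 CPM untreated, 9.49, 0 and 17.9 CPM at 24 h, and 65.2, 54.4 and 30.1 CPM at 72 h. At 72 h the Iceland libraries of Unigene0052225 stood far above the America ones. Unigene0026599 was uneven between replicates. In Iceland leaves it had 8.75, 9.61 and 7.81 CPM untreated, 8.59, 13.6 and 11.7 CPM at 24 h, and 7.60, 10.2 and 208 CPM at 72 h. America leaves gave 9.28, 6.30 and 5.69 CPM untreated, 11, 4.67 and 6.68 CPM at 24 h, and 22.8, 47.1 and 52.3 CPM at 72 h. Only replicate 3 of the Iceland 72 h libraries was high, and without it the smaller late step of Unigene0026599 was -0.31. In Iceland leaves Unigene0017464 had 4.71, 1.83 and 3.81 CPM untreated, 5.73, 4.97 and 5.41 CPM at 24 h, and 23.3, 29.5 and 36.4 CPM at 72 h. The America leaves had 14, 0.846 and 6.14 CPM untreated, 21.1, 7.61 and 11.3 CPM at 24 h, and 82.7, 58.5 and 90.9 CPM at 72 h. The 72 h libraries of Unigene0017464 lay above all earlier ones in both origins.

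**Figure D3:**
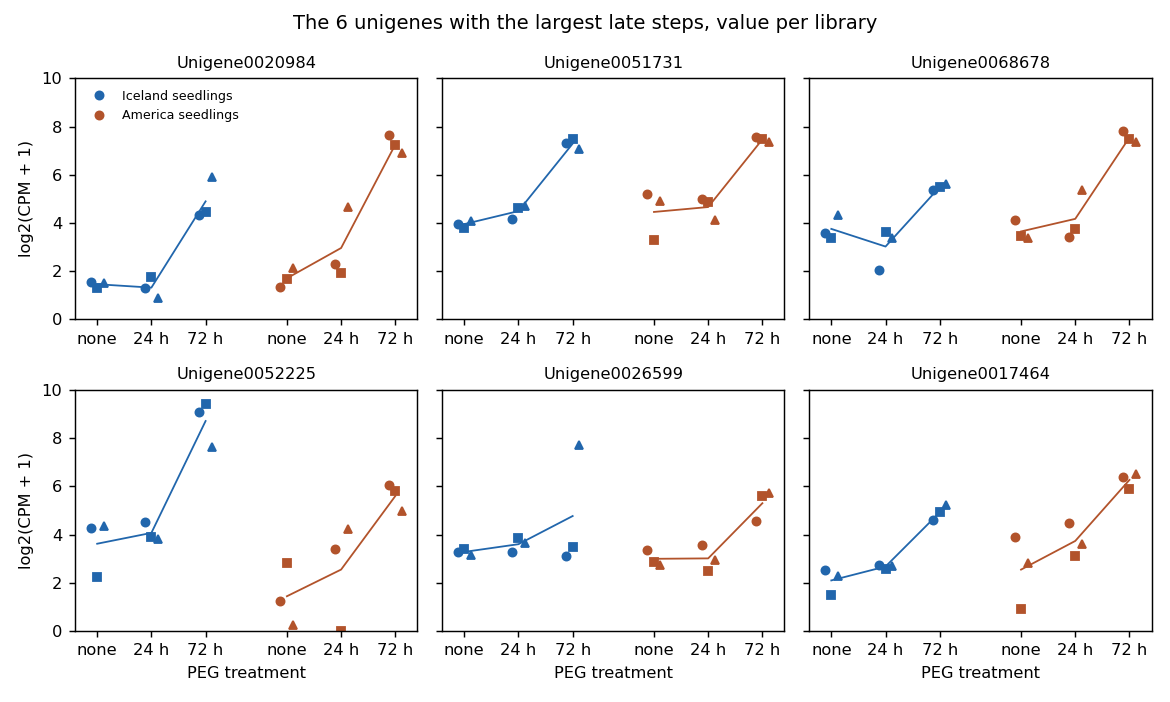
Value of the 6 unigenes with the largest smaller late step in each library, as log2(CPM + 1), in Iceland (left of each panel) and America (right) seedlings untreated or under PEG for 24 h or 72 h. Circles, squares and triangles are replicates 1, 2 and 3 and the lines join the means of the plotted values; in Unigene0026599 a single Iceland 72 h library, at 208 CPM, lies above the others.

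The members spanned a wide range of levels. Mean deposited FPKM, counts scaled by unigene length and library total, which allows levels of different unigenes to be compared, ran from 1.10 to 222 with a median of 14.3, and the 20811 unigenes had a median of 8.13. The limit of 200 CPM bounds the mean CPM and not the mean FPKM, which reached 506 in the 20811 unigenes. The 4 members with the highest mean CPM were Unigene0066366 (222 FPKM), Unigene0005739 (193 FPKM), Unigene0017103 (134 FPKM) and Unigene0046980 (42.0 FPKM), which differ in length between 886 and 4428 bases.

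In Iceland leaves Unigene0017103 had 29.6, 31.9 and 76.8 CPM untreated, 258, 195 and 167 CPM at 24 h, and 463, 446 and 378 CPM at 72 h. Those of America origin had 38.3, 38.7 and 21.5 CPM untreated, 110.1, 119 and 193 CPM at 24 h, and 237, 239 and 260.0 CPM at 72 h. The 3 treatments did not overlap in either origin. In Iceland leaves Unigene0046980 had 46.7, 43.5 and 73 CPM untreated, 217, 173 and 181 CPM at 24 h, and 355, 319 and 405 CPM at 72 h. America libraries held 60.2, 67.7 and 45.1 CPM untreated, 123, 104 and 231 CPM at 24 h, and 305, 309.7 and 289 CPM at 72 h. In Unigene0046980 the treatments again did not overlap. The other 2 were noisier. In Iceland leaves Unigene0066366 had 99.5, 96 and 144 CPM untreated, 178, 146 and 126 CPM at 24 h, and 355, 357 and 236 CPM at 72 h. In America seedlings the values were 136, 90.8 and 63.1 CPM untreated, 167, 156 and 168 CPM at 24 h, and 484, 321 and 213 CPM at 72 h. In Unigene0066366 the 72 h libraries lay above all others, with a wide range in America leaves, and untreated and 24 h libraries overlapped in Iceland leaves. In Iceland leaves Unigene0005739 had 125, 177 and 155 CPM untreated, 55.2, 157 and 79.3 CPM at 24 h, and 382, 484 and 243 CPM at 72 h. The values in America leaves were 49.3, 113 and 267 CPM untreated, 118, 117 and 68.7 CPM at 24 h, and 223, 146 and 496 CPM at 72 h. Unigene0005739 was lower at 24 h than untreated by group means, with early steps of -0.64 and -0.50, but its untreated and 72 h libraries overlapped in America leaves.

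Some members had made most of their rise by 24 h. By the smaller of their early steps in the 2 origins, Unigene0007066 ranked first, with 4.63 in Iceland and 3.54 in America leaves, and it had late steps of 0.78 and 1.39. The Iceland leaves had 2.69, 2.40 and 7.32 CPM untreated, 115, 117 and 147 CPM at 24 h, and 245, 212 and 198 CPM at 72 h. America leaves gave 4.52, 4.98 and 2.93 CPM untreated, 31.6, 43.6 and 101 CPM at 24 h, and 187, 121 and 159 CPM at 72 h. The 3 treatments were apart in both origins. Unigene0006065 ranked next by the same measure, with early steps of 3.27 in Iceland and 3.06 in America leaves. Iceland libraries held 4.79, 5.67 and 15.7 CPM untreated, 106, 87.1 and 85.1 CPM at 24 h, and 191, 193 and 145 CPM at 72 h. The America leaves had 19.5, 5.45 and 8.07 CPM untreated, 83.8, 107 and 106 CPM at 24 h, and 286, 254 and 278 CPM at 72 h. Here too no libraries of different treatments overlapped. Unigene0003236 had early steps of 2.64 and 2.67, but America 24 h replicate 3, at 44.2 CPM, stood far above its replicates, which had 6.45 and 3.85 CPM.

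At the other end, Unigene0024829, Unigene0018790 and Unigene0068678 had the lowest values of that smaller early step, -1.21, -0.69 and -0.65, each in Iceland leaves. In Iceland leaves Unigene0024829 had 6.64, 0.192 and 0.683 CPM untreated, 0.185, 1.05 and 0.312 CPM at 24 h, and 7.69, 9.93 and 6.58 CPM at 72 h. Those of America origin had 0, 3.86 and 0.367 CPM untreated, 1.20, 0 and 3.10 CPM at 24 h, and 0.504, 4.90 and 8.12 CPM at 72 h. With 0 counts in a pair of America libraries and 1 high untreated Iceland library, Unigene0024829 met the thresholds in only 12 of 18 refits that left out a library, the fewest of any member. In Iceland leaves Unigene0018790 had 0.757, 0.672 and 2.15 CPM untreated, 0.0924, 0.349 and 0.625 CPM at 24 h, and 4.63, 4.91 and 3.60 CPM at 72 h. America libraries held 2.62, 0.940 and 1.47 CPM untreated, 2.95, 2.05 and 1.65 CPM at 24 h, and 7.73, 7.39 and 4.34 CPM at 72 h. Every Iceland library of Unigene0018790 lay lower at 24 h than untreated and higher at 72 h than at either. The highest 24 h value, 0.625 CPM, lay just under the lowest untreated value, 0.672 CPM, and both rest on few counts.

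The whole table was also tested by edgeR's quasi-likelihood test with Benjamini-Hochberg adjustment. The contrasts between times were used to choose the members, so their counts describe the members and support nothing. Between 72 h and untreated leaves 139 of 150 members were called higher in Iceland, where 23.4% of all 30895 tested unigenes were called higher, and 136 in America, where 18.4% were. Between 72 h and 24 h the counts were 61 in Iceland (2.00% of all tested) and 51 in America (0.809%). Between 24 h and untreated leaves 53 were called higher and 1 lower in Iceland (19.7% and 20.6% of all tested), and 63 higher and 0 lower in America (16.0% and 15.1%). The median fitted log2 fold changes of members were 1.3 and 1.29 for 72 h over 24 h, against 0.02 and -0.01 over all tested unigenes. With 1 of its libraries left out, the count for 72 h over 24 h was as low as 20 in Iceland (without 72 h replicate 1) and 21 in America leaves (without 24 h replicate 2). The share of all tested unigenes called in those refits is not given, so the drop is not shown to be particular to the members.

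By the libraries themselves, 72 h lay above 24 h without overlap in 134 members in Iceland and in 114 in America leaves, where 17.5% and 14.6% of the 20811 unigenes did. In 101 members the 72 h libraries lay above both the 24 h and the untreated ones in both origins, which 3.48% of the 20811 unigenes did. The 72 h libraries lay above the untreated ones in 145 members in Iceland and in 142 in America leaves, against 30.7% and 38.2% of the 20811. The 24 h libraries lay above the untreated ones in 76 members in Iceland and in 88 in America leaves, where 26.2% and 34.9% did. Here too the choice of members fixes the direction.

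The difference between origins under 1 treatment was not used to choose members, and it was tested. The question was whether leaves of Iceland and America seedlings held these transcripts at different levels. A minority of members passed the test under each treatment, and no test was made of their share against that of all tested unigenes. In untreated leaves 4 of 150 members were called, all 4 higher in Iceland, 2.67% of members against 5.08% of all tested unigenes (2.74% higher and 2.34% lower). With DESeq2 size factors 4 were higher and 1 lower, and the share of all tested unigenes under that setting is not given. At 24 h 6 were higher and 8 lower in Iceland, 9.33% of members against 13.9% (7.95% higher and 5.96% lower). At 72 h 6 were higher and 9 lower, 10% against 13.2% (8.06% higher and 5.15% lower). The median log2 fold change of Iceland over America was 0.03 untreated, -0.06 at 24 h and -0.04 at 72 h in the members, and 0.03, -0.05 and -0.03 over all tested unigenes. The median size of that log2 fold change, whatever its sign, was 0.42, 0.52 and 0.57 in the members and 0.38, 0.45 and 0.44 over all tested unigenes. By the libraries alone, Iceland and America did not overlap in 24 members untreated, 44 at 24 h and 62 at 72 h, that is in 16.0%, 29.3% and 41.3% of members. Over the 20811 unigenes this was so in 19.1%, 31.7% and 34.3%. The requirement of an untreated mean of at least 1 CPM in each origin keeps out unigenes that 1 origin lacks.

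These counts were small and depended on single libraries. In untreated leaves 12 members were called without untreated Iceland replicate 3 and 2 without untreated America replicate 1. At 24 h 4 to 8 were called without any 1 of the 6 libraries compared and 9 without Iceland 72 h replicate 2. At 72 h 3, 5 and 7 were called without America replicates 1, 2 and 3, 3 without Iceland replicate 1 or 2, and 25 without untreated Iceland replicate 3. The share of all tested unigenes called in each of these refits is not given here. These changes are thus not shown to be particular to the members. Of the called members, 6 were called both at 24 h and at 72 h, each in the same direction, 42.9% of the 14 and 40.0% of the 15. Over all tested unigenes 45.4% of those called at 24 h and 47.8% of those called at 72 h were called at the other time. The groups at 24 h and 72 h share no library. Both tests come from a single fit with a shared estimate of the spread, so the calls are not independent. None of the 4 members called without treatment was called at either time. Over all tested unigenes 33.6% of those called untreated were called at 24 h and 32.4% at 72 h. With only 4 members, this does not show a smaller share.

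**Figure D4:**
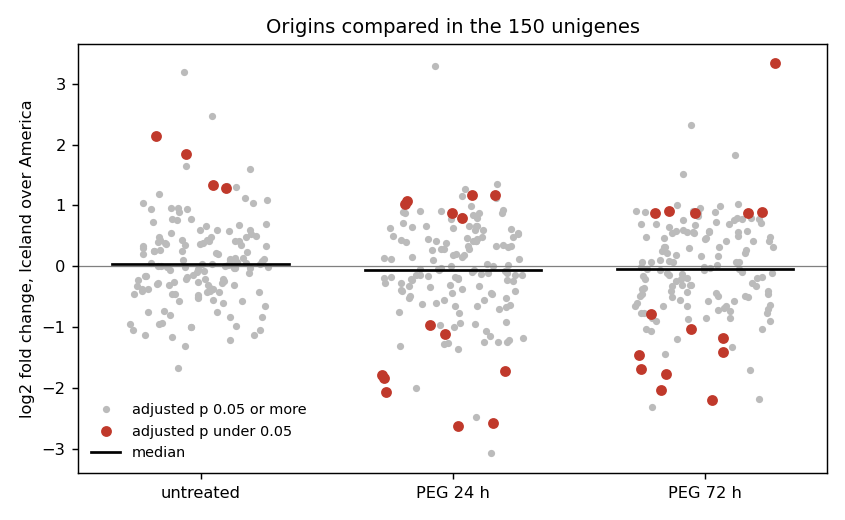
Fitted log2 fold change of Iceland over America leaves (vertical axis) in each of the 150 unigenes, untreated and after 24 h or 72 h of PEG. Red points passed edgeR's test (4, 14 and 15 unigenes), grey points did not, and the black lines give the medians of 0.03, -0.06 and -0.04; points are spread sideways only to be seen.

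Among members higher in Iceland, Unigene0070081 and Unigene0078018 differed in untreated leaves. In Iceland leaves Unigene0070081 had 4.71, 7.01 and 4.78 CPM untreated, 7.67, 10.2 and 12.3 CPM at 24 h, and 27.7, 25.6 and 15.3 CPM at 72 h. In America seedlings the values were 1.35, 1.13 and 1.38 CPM untreated, 7.83, 6.79 and 7.65 CPM at 24 h, and 38.7, 65.9 and 29 CPM at 72 h. The untreated libraries did not overlap (log2 fold change, Iceland over America, 2.13 ± 0.35 SE, edgeR adjusted p = 0.00389), and at 72 h the order was the other way, with adjusted p = 0.057 by edgeR. In Iceland leaves Unigene0078018 had 9.92, 6.05 and 10.2 CPM untreated, 15.6, 14.3 and 11.2 CPM at 24 h, and 26.6, 30.7 and 43.3 CPM at 72 h. The values in America leaves were 3.73, 1.88 and 1.74 CPM untreated, 7.09, 8.19 and 12 CPM at 24 h, and 25.4, 18.1 and 25.8 CPM at 72 h. The Iceland libraries were again higher without treatment (log2 fold change, Iceland over America, 1.84 ± 0.31 SE, edgeR adjusted p = 0.00455), and at 72 h they were so without passing the test.

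At 24 h Unigene0019489 and Unigene0007066 were higher in Iceland. For Unigene0019489 the values at 24 h were 138, 96.5 and 58.6 CPM in Iceland leaves and 40.9, 39.8 and 55.1 CPM in America leaves (log2 fold change, Iceland over America, 1.18 ± 0.37 SE, edgeR adjusted p = 0.0448). For Unigene0007066, given above, the difference was of like size (log2 fold change, Iceland over America, 1.17 ± 0.37 SE, edgeR adjusted p = 0.0472). Both calls were lost in most refits that left out a library, 12 and 13 of 18. At 72 h Unigene0052225, with Iceland libraries between 197 and 679 CPM, showed the widest gap in favour of Iceland (log2 fold change, Iceland over America, 3.33 ± 0.98 SE, edgeR adjusted p = 0.0361). Unigene0009356 had 103, 94.9 and 83 CPM in Iceland leaves and 39, 78.5 and 38.9 CPM in America leaves at 72 h (log2 fold change, Iceland over America, 0.91 ± 0.25 SE, edgeR adjusted p = 0.0269).

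Among members lower in Iceland, Unigene0020984 was called at both times. Its log2 fold change was -2.62 ± 0.73 SE at 24 h (edgeR adjusted p = 0.0273) and -2.19 ± 0.61 SE at 72 h (edgeR adjusted p = 0.0291). At 24 h America replicate 3 stood far above its replicates, and limma-voom gave an adjusted p of 0.21, against 0.0183 to 0.240 over the refits that left out a library. Unigene0018790 was lower in Iceland at 24 h (log2 fold change, Iceland over America, -2.56 ± 0.58 SE, edgeR adjusted p = 0.0105), with values near the floor in Iceland leaves. Unigene0068678 was lower in Iceland at 72 h (log2 fold change, Iceland over America, -2.03 ± 0.46 SE, edgeR adjusted p = 0.0111).

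Over all 33 calls, 5 members kept theirs in every refit that left out 1 of the 18 libraries. They are Unigene0070081 and Unigene0078018 untreated, Unigene0018790 at 24 h, and Unigene0025097 and Unigene0000647 at 72 h, of which the last 2 were chosen after their values were seen. With limma-voom the untreated call of Unigene0070081 was lost (adjusted p = 0.0774) and the other 4 were kept. At 72 h Unigene0025097 had 71.3, 77.8 and 77.1 CPM in Iceland leaves, against 302, 329 and 171 CPM in America leaves. The log2 fold change was -1.76 ± 0.29 SE (edgeR adjusted p = 0.00196). At 72 h Unigene0000647 had 23.2, 24.5 and 27.7 CPM in Iceland leaves, against 62.7, 62.5 and 52 CPM in America leaves. The log2 fold change was -1.17 ± 0.24 SE (edgeR adjusted p = 0.00663). In both unigenes no Iceland library reached the lowest America library.

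The sizes of the responses were set beside each other as well, though the choice of members rests on those responses. Late steps were higher in Iceland in 67 members and in America in the other 83. In edgeR's test of the difference of 24 h responses 0 members passed, where 0.861% of all tested unigenes did, with 25 members at an unadjusted p under 0.05. For the difference of late steps 0 members passed, where 0.0809% of all tested did, with 10 members at an unadjusted p under 0.05, and DESeq2 called 1. For the difference of 72 h responses 1 member passed, where 0.693% of all tested did, limma-voom called 0 and DESeq2 6. These percentages are those of edgeR. The shares of all tested unigenes called by limma-voom and DESeq2 are not given, so their counts have no share to be read against. Members that did not pass are not shown to respond alike.

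By its median, the spread between replicates was wider in the members than over all 20811 unigenes, without a test. The members were chosen by group means of these same libraries, so their spread is not independent of the choice. What part the choice had in it was not tested. The median SD of log2(CPM + 1) within a group was 0.42 untreated, 0.32 at 24 h and 0.25 at 72 h in Iceland leaves, against 0.31, 0.23 and 0.20 over the 20811 unigenes. In America leaves it was 0.44, 0.41 and 0.32, against 0.23, 0.23 and 0.20. The median biological coefficient of variation from edgeR was 0.340 in members and 0.230 in the 20811. Members ranged from Unigene0004700, with a mean SD of 0.166, to Unigene0015180, with 1.3. In Iceland leaves Unigene0004700 had 32.8, 34.7 and 45.3 CPM untreated, 52.6, 62.7 and 56.9 CPM at 24 h, and 118, 111 and 116 CPM at 72 h. America leaves gave 43.7, 35.9 and 35.8 CPM untreated, 67.4, 63.4 and 82.6 CPM at 24 h, and 147, 121 and 107 CPM at 72 h. In Unigene0004700 the 3 treatments were apart in both origins. In Iceland leaves Unigene0015180 had 1.01, 0.672 and 7.71 CPM untreated, 0.739, 9.24 and 8.96 CPM at 24 h, and 75, 151 and 148 CPM at 72 h. The America leaves had 1.11, 0.846 and 11.3 CPM untreated, 12.62, 34.6 and 118 CPM at 24 h, and 286, 296 and 54.7 CPM at 72 h. In Unigene0015180 replicate 3 was highest untreated in both origins and lowest at 72 h in America leaves.

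The members' deviations within a group leaned to a pair of libraries. Untreated Iceland replicate 3 was the highest of its group in 103 members, 68.7% of them, against 56.6% of the 20811 unigenes, and in 70 members its CPM + 1 was at least 1.5 times the mean of the others (46.7% against 24.9%). America 24 h replicate 3 was the highest in 80 members, 53.3% against 35.6%, and its CPM + 1 was at least 1.5 times the mean of the others in 51 (34.0% against 8.79%). The members held 0.270% of the counts in untreated Iceland replicate 3, against 0.166% and 0.161% in its replicates. Without America 24 h replicate 3 the median late step of members in America leaves was 1.46. The mean pairwise correlation of deviations from the group means over the 18 libraries was 0.102 among members and 0.0327 among the 20811 unigenes. It was 0.0505 and 0.0104 without untreated Iceland replicate 3, and 0.0326 and 0.0115 also without America 24 h replicate 3. Iceland 72 h replicate 3 was the highest of its group in only 39 members, 26.0% against 48.2% of the 20811 unigenes. It still carried the late rise in single members. In Unigene0029581 it had 204 CPM against 53.0 and 49.0 CPM in its replicates, and in Unigene0074014 144 CPM against 34.0 and 21.1 CPM. In neither unigene did these replicates reach the highest Iceland 24 h library. What part these libraries' differences had in the steps beyond the values given was not tested.

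Membership itself changed with the libraries used. When the thresholds were applied anew with 1 library left out, 134 to 149 of the 150 members still met them, and 88 met them in all 18 cases. The number of qualifying unigenes lay between 213 and 336, and the highest came without America 24 h replicate 3. Of the members, 61 stayed among the first 150 in all cases. With the median of 3 libraries in place of the mean, 123 members met the thresholds.

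**Figure D5:**
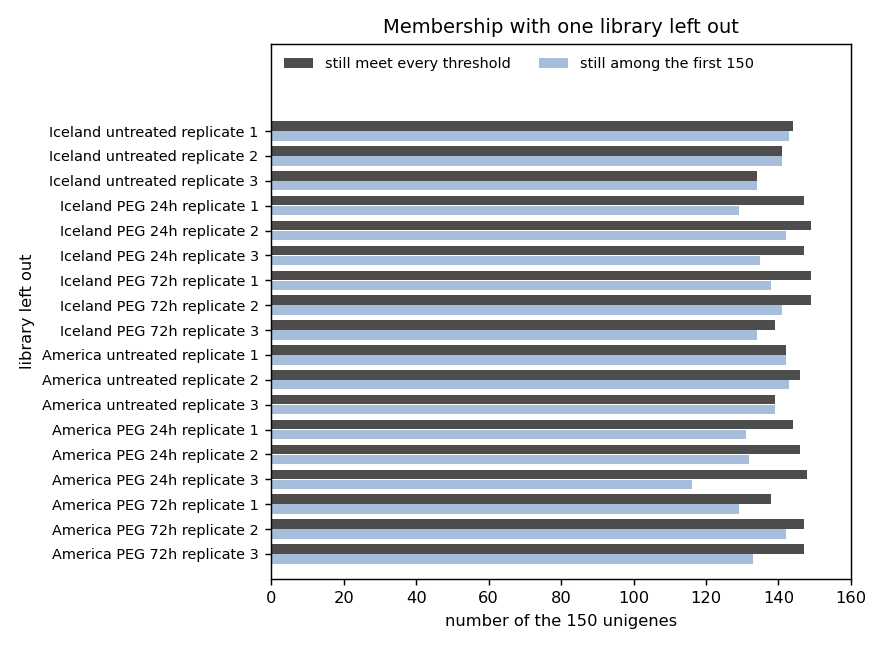
Number of the 150 unigenes that still met every threshold (dark bars) and that were still among the first 150 by late step (light bars) when each library in turn was left out, with Iceland libraries above and America libraries below. Dark bars run from 134 (without untreated Iceland replicate 3) to 149, and the shortest light bar, at 116, is that without America 24 h replicate 3.

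Length was not used in the choice. Lengths derived from the deposited FPKM and counts had a median of 1565 bases in the members, with quartiles of 1069 and 2135, and of 1641 bases in the 20811 unigenes, with quartiles of 998 and 2422. The members ran from 394 to 7450 bases.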

How the data were processed

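Among the tools listed, per the submitters' processing notes, are RSEM 1.3.1, cutadapt 1.18 and bcl2fastq 2.0.1. Their roles, the assembler, the annotation and the strand setting were not given in the sources used here. The authors deposited whole-number counts per unigene for each library, per the file headers, which may be rounded estimates, so reads of near-identical unigenes may have been shared out. The FPKM values deposited by the authors equal the counts scaled by library total and by 1 length per unigene: in 256 unigenes of high count that length varied by at most 0.0352%. They served only for lengths and for levels between unigenes.

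CPM divides counts by the column sum. The counts as deposited were fitted in R 4.3.3 with edgeR 4.0.16: filterByExpr kept 30895 unigenes, all 150 members among them, with TMM scaling and 6 group means over 18 libraries. P-values were adjusted over all unigenes tested, with a threshold of 0.05. SEs come from the fold change and its F statistic. The fit was also run on simulated data, whose outcome is not given here, and no result above rests on it. Alternatives used limma 3.58.1, DESeq2 1.42.0, other scaling, filters, pseudocounts and samples. The members, the lists and the rule for named unigenes were chosen with earlier results of these data known. The rule names the 6 members with the largest smaller late step, the 4 highest by mean CPM, those beside the limit of 150, the 3 highest and 3 lowest by smaller early step, up to 2 called in each direction per comparison of origins without overlap, and the lowest and highest by spread.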

Additional observations from a re-analysis of the deposited data

Results flagged for a closer look

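The response of Unigene0070081 to 72 h of PEG was called different between Iceland and America seedlings by edgeR. This was the call of 1 in 150 members (0.667%), where 0.693% of all tested unigenes were called. The difference of log2 responses, Iceland minus America, was -3.02 ± 0.46 SE (edgeR adjusted p = 0.0182). On the log2(mean CPM + 1) scale, which is not that of the fit, its 72 h minus untreated step was 1.88 in Iceland and 4.32 in America leaves. Its untreated America libraries held 1.35, 1.13 and 1.38 CPM, where the added 1 makes the step smaller. The call was lost in 3 of 18 refits that left out a library, with adjusted p up to 0.0593, and with limma-voom (adjusted p = 0.0844), and it was kept with DESeq2 (adjusted p = 1.17e-05). The choice of members rests on the responses that this test compares, so the call describes this member and supports nothing further.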

How the results depend on the processing

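The table gives no names, so limits of function apply throughout, and low members rest on few counts. For members called between origins without treatment (4), the count was 8 with no filter on low counts, 1 with limma-voom or with a fit to only the groups compared, 9 with DESeq2, and 2 to 12 with each library left out. At 24 h (14) it was 22 with DESeq2 and 4 to 20 with a library left out. At 72 h (15) it was 23 with no filter, 39 with only the groups compared, 32 with limma-voom, 24 with DESeq2, 9 with a minimum of 2-fold, and 3 to 25 with a library left out. With replicate number as a block the counts were 5, 10 and 14. The shares of all tested unigenes called under these settings are not given here. These changes are thus not shown to be particular to the members, and their causes were not tested. Of 9 same-numbered pairs of Iceland and America libraries, 0 had deviations correlated over 0.1, and 9 of 18 libraries correlated best with their own number, so the numbers are not shown to pair samples. The count of qualifying unigenes was 173 (pseudocount of 4) to 303 (median of libraries) under other scaling, pseudocount or median, and 213 to 336 with a library left out. Median late steps ranged from 1.26 to 1.33 in Iceland and from 1.18 to 1.46 in America, and median early steps from 0.69 to 1.00 and from 0.80 to 1.09, with a library left out. A pseudocount of 4 lowered the median late step in Iceland to 1.05. The smaller late step of Unigene0026599 turned to -0.17 with the median of libraries and ranged from -0.31 (without Iceland 72 h replicate 3) to 2.63 with a library left out. Of the other settings for the smaller late step of named unigenes, 591 moved it by less than the spread between replicates and 1 by more (Unigene0018790, to 0.76 with a pseudocount of 4).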

Other observations

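Among the 150 members were 4 pairs with consecutive identifiers. Over the 18 libraries the deviations of Unigene0059353 and Unigene0059354 (479 and 395 bases) from their group means correlated at r = 0.827. For Unigene0017463 and Unigene0017464 the value was 0.377, for Unigene0004569 and Unigene0004570 it was 0.332, and for Unigene0032297 and Unigene0032298 it was 0.0272. Among the 20811 unigenes that met the limits on level, 7510 pairs with consecutive identifiers had a median of 0.0915, and 6130 pairs whose identifiers lay 1000 apart had a median of 0.0377. Whether such pairs are parts of a single transcript or share reads was not tested, since no sequence is given. A further 100 unigenes next to a member by identifier were no members and met the limits on level. They had median late steps of 0.09 in both origins, against 0.04 in Iceland and 0.02 in America leaves over the 20811. Of the 100, 0 met the thresholds. With members left out, only the 82 unigenes beyond the limit of 150 could have met them, so this 0 says little.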
